A study of Mus musculus with 7 samples.

Results

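The 10 genes described here encode adhesion and surface proteins, and 3 secreted or matrix proteins, by which endothelial cells of all vessel types are recognised. They are Pecam1, Cdh5, Esam, Icam2, Robo4, Clec14a, Mmrn2, Cd34, Egfl7 and Vwf, chosen by name from 21853 protein-coding genes of GENCODE release M21. For each gene, every listed ATAC-seq peak that touched the gene body or the 20 kb on either side was taken. ATAC-seq maps open chromatin by letting a transposase insert sequencing adapters into accessible DNA. Here it was applied to retinal endothelial cells of FUCCI reporter mice at postnatal day 6. All cells came from mice of this 1 genotype and were sorted as CD31-positive, CD45-negative and alive. Cells without reporter fluorescence were taken as early G1 and gave 3 libraries, and red cells were taken as late G1 and gave 4. The labels do not state which promoter drives the reporter or whether the libraries of 1 group are from different animals.

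The endothelium is held together by proteins that bind the same protein, or a partner, on the neighbouring cell. VE-cadherin, the product of Cdh5, forms the adherens junctions, and PECAM-1, ESAM and ICAM-2 are immunoglobulin-type proteins of the same contacts that also guide leukocytes across the vessel wall. ROBO4 and CLEC14A are receptors of the endothelial surface, multimerin-2 (Mmrn2) is a matrix protein that binds CLEC14A, CD34 is a sialomucin, and EGFL7 and von Willebrand factor (Vwf) are secreted. CD31 is another name of PECAM-1, so the product of 1 of the 10 genes was itself used to sort the cells of both groups. Factors of the ETS family are known to act at promoters and enhancers of many endothelial genes.

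The peaks of each group had been called once, after its libraries were merged, so the values carry no replicate error and the groups could not be tested against each other. The early pool held 137191808 fragments and the late pool 124693948, and neither list went below a pileup of 19. Pileup is the authors' mean number of fragments over the enriched parts of a peak, not scaled to depth, and is ranked here only within a list. The early list held 606661 peaks that covered 40.5% of the sequenced genome, against 383721 peaks and 13.3% in the late list, and the pool and the phase cannot be told apart as the source of that difference. A wider peak in a pool can come from more cells with open chromatin or from more fragments per cell, and these cannot be told apart either. Each gene is therefore set beside all protein-coding genes of the same list. The start sites used belong to protein-coding transcripts, a start site peak lies at least in part within 1 kb of one, and positions in bp count from the 5′ end of the gene, negative upstream.

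The RefSeq promoter table (GRCm38, the build of mm10) matched 6 promoters of 4 of the 10 genes. They run from 250 bases before to 50 after the start and are written on the strand of the gene. The 5 shown are those of Robo4, Clec14a and Cd34 with promoters 2 and 3 of Egfl7, because the lists covered them in 4 different ways. The promoter not shown, Egfl7 promoter 1, was covered to 0% in both lists. Capitals mark exact matches, on either strand, to CAGGAAG (an ETS word, CTTCCTG on the other strand), ACAAAG (a SOX word) and GGGCGG (a word of SP and KLF factors). Other words were searched on both strands and matched none of the 6: a second ETS word, CCGGAAG, and the word of GATA factors, AGATAA. The same held for TGTTTAC, bound by forkhead factors, for TGANTCA, bound by AP-1 factors, and for TATAAA, the word of the TATA box.
Robo4 promoter, chr9:37401722-37402021, plus strand, covered in full in both lists: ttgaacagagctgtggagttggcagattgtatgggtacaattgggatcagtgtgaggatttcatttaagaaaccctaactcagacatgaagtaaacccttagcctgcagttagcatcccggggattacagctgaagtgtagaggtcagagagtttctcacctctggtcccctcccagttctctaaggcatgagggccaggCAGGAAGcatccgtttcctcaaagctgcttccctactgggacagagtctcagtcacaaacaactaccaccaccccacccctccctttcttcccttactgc
Clec14a promoter, chr12:58269209-58269508, minus strand, 39.3% covered early and 100% late: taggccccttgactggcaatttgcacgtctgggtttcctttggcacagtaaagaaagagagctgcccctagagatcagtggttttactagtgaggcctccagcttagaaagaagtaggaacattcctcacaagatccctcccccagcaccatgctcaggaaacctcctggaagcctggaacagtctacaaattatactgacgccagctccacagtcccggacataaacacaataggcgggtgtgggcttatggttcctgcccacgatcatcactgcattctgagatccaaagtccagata
Cd34 promoter, chr1:194938571-194938870, plus strand, 100% covered early and 0% late: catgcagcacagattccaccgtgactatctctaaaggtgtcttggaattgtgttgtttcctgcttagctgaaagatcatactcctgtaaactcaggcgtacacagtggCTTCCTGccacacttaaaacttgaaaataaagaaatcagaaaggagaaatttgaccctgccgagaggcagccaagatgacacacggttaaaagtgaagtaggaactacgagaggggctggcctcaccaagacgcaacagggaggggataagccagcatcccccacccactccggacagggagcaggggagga
Egfl7 promoter 2, chr2:26583615-26583914, plus strand, 100% covered early and 0% late: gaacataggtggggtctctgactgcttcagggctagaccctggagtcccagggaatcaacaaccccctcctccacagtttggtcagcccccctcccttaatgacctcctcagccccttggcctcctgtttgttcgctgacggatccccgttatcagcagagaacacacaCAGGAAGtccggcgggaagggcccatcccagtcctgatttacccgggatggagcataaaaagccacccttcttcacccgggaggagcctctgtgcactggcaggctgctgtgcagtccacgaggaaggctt
Egfl7 promoter 3, chr2:26586386-26586685, plus strand, 0% covered early and 100% late: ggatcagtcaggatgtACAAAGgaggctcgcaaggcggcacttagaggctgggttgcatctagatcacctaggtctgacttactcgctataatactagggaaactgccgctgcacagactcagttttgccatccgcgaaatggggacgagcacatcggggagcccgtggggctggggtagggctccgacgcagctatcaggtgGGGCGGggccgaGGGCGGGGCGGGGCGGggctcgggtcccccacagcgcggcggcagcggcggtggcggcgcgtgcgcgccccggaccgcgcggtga

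The word CAGGAAG occurred in 4 of the 6 promoters: those of Cd34 and Robo4 and the first 2 of Egfl7. Egfl7 promoter 1, which neither list covered, held 2 matches. CAGGAAG was present in 13.3% of 32851 mouse promoters of the same length. Counted from the first base printed, it lay at positions 109 to 115 in Cd34, on the minus strand, at 170 to 176 in Egfl7 promoter 2 and at 201 to 207 in Robo4. GGGCGG occurred in Egfl7 promoter 3 only, with 4 matches of which 3 ran end to end with 1 base in common, and was present in 35.7% of all promoters. ACAAAG matched once in that promoter and was present in 18.7% of all. Egfl7 promoter 3 also had the highest GC content of the 6, at 67.3%, and an observed to expected CpG ratio of 0.95, while the ratios of the other 5 ran from 0.11 to 0.37. The median ratio of all promoters was 0.38. These matches describe letters of the reference, not binding.

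Peaks lay within 1 kb of a start site in 9 of the 10 genes in each list. In the early list that share was close to the 92.6% of all protein-coding genes. In the late list it was 9 of 10 against 67.3% of all genes, and with only the better-scoring 50% of each list it was 5 of 10 against 31.8%. When only the 5′ end of the whole gene counted as a start, the late count was 6 of 10 against 58.9% of all genes, and with 500 bp in place of 1 kb it was 7 of 10 against 57.5%. Both lists held such a peak at 8 of the 10 genes, against 64.3% of all. Pecam1 had one in the early list only, as did 28.4% of all genes, and Mmrn2 had one in the late list only, as did 3.07% of all. Genes with several start sites have more chances of such a peak: the median was 3.5 start sites in the 10 genes, and among all genes with 2 to 6 start sites 72.5% had a late start site peak.

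Peaks covered a median of 45.6% of the gene windows early and 19.1% late. The medians over all protein-coding genes were 45.4% and 14.9%. The early share was above that median in 5 of the 10 genes and the late share in 8, Pecam1 at 12.8% and Clec14a at 14.5% being below it. The ratio of late to early share was computed as log2 with 1 percentage point added to each, less the median of all genes, which was -1.51; this is called the scaled log2 ratio below. Its median over the 10 genes was 0.29, and it was above 0 in 9 of them, with Egfl7 at -0.00. None was above 1, where 2.86% of all genes lay, and none below -1, where 3.71% lay. When both lists were cut to the same number of their strongest peaks, the median turned to -0.45, with 3 of 10 genes above 0, so the direction depended on which peaks were kept. With the better-scoring 50% of each list it was 0.06 and with flanks of 50 kb 0.05, with 6 and 7 genes above 0.

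**Figure D1:**
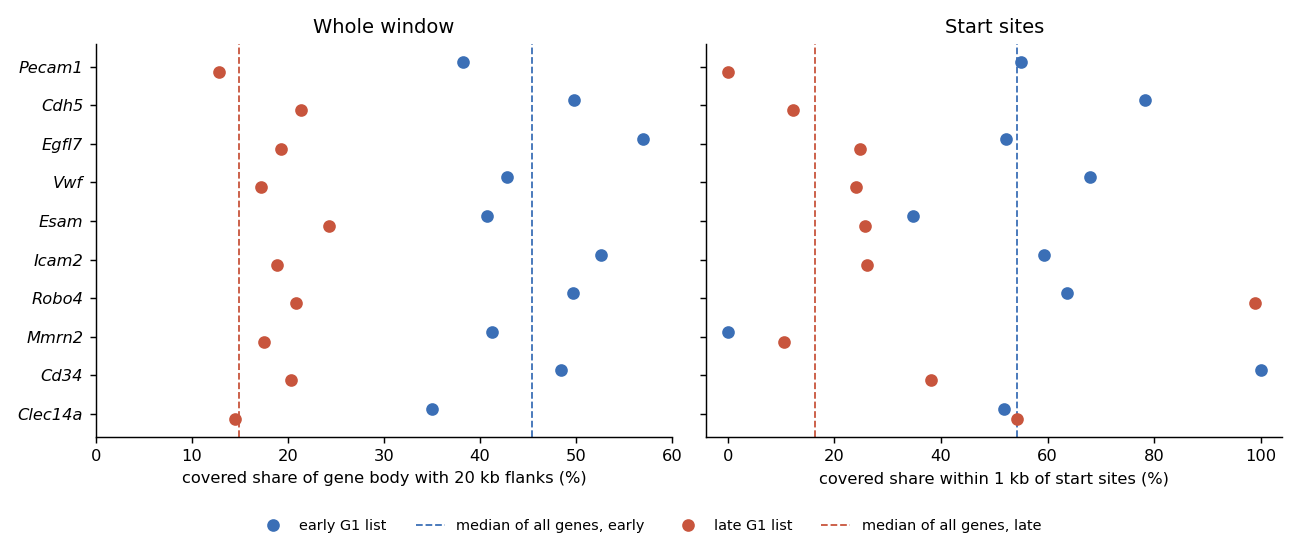
Covered share in percent of the gene body with 20 kb flanks (left) and of the bases within 1 kb of start sites (right) for each of the 10 genes, with early G1 in blue and late G1 in red; dashed lines are medians over all protein-coding genes. Late shares of the windows are above the late median of 14.9% in 8 genes, and at the start sites Robo4 reaches 98.9% late, while Pecam1 is at 0% late and Mmrn2 at 0% early.

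The windows of the 10 genes held 201 early and 142 late peaks. Early peaks were 232 bp (Egfl7) to 7338 bp (Robo4) long with a median of 1516 bp, and late peaks 236 bp (Vwf) to 4388 bp (Icam2) with a median of 765 bp, beside 1334 and 681 bp in the whole lists. Early peaks numbered from 12 in Robo4 and Clec14a to 54 in Vwf, and late peaks from 6 in Clec14a to 34 in Vwf, which has the longest window at 180 kb. Per 10 kb the range was 1.89 (Mmrn2) to 3.00 (Vwf) for early peaks and 1.35 (Clec14a) to 2.59 (Esam) for late peaks. The medians per 10 kb were 2.53 and 1.76, beside 2.47 and 1.61 over all genes. The peaks were thus about as dense around these genes as around others. Bases covered in both lists made up 21.7% of the early and 53.9% of the late bases in the 10 windows together, against 16.9% and 50.2% over all genes. Esam had the largest common part on both scales, 41.0% of its early and 69.0% of its late bases.

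**Figure D2:**
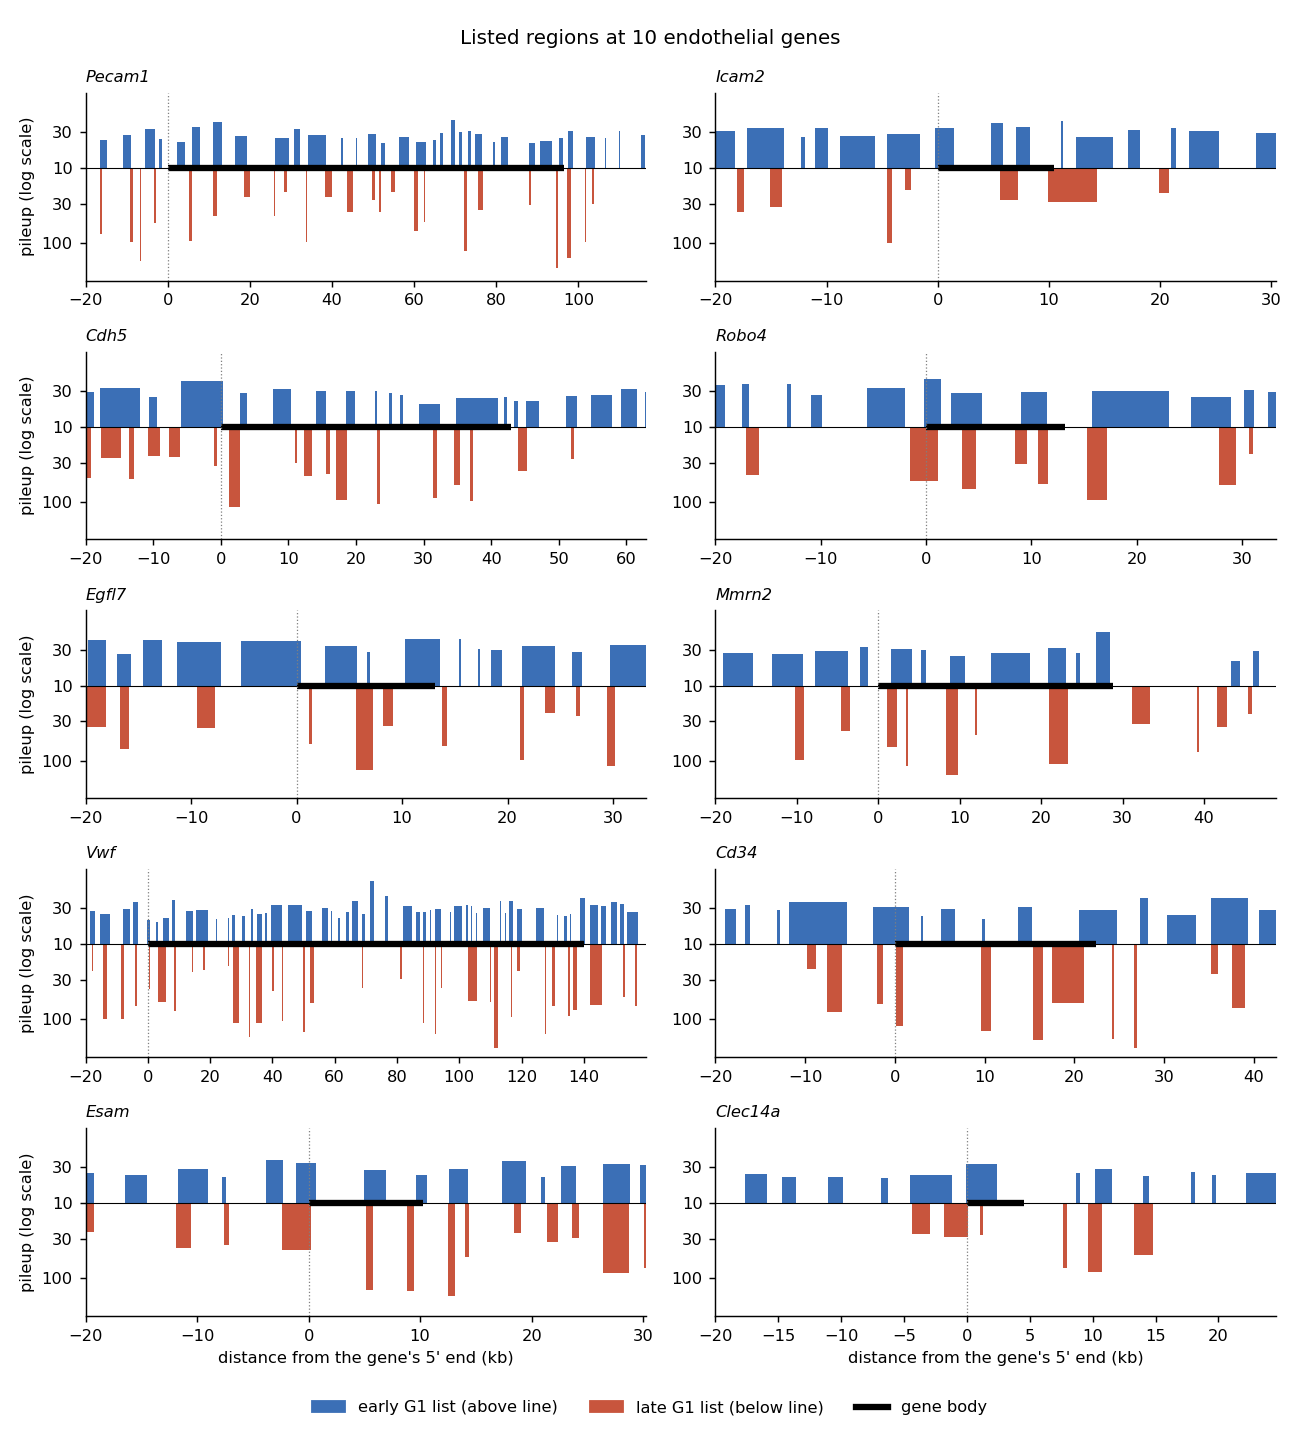
Listed peaks along the 10 genes by distance from the 5′ end in kb, early G1 above the line and late G1 below it; the height is the pileup on a log scale that starts at 10 (lowest listed value 19), and the black bar is the gene body. Early peaks are broad and of similar height, while late peaks are narrower and vary from 19.2 to 240.1. At Pecam1 neither list has a peak at the 5′ end, which is 1 of its 6 start sites, and at Robo4 both do.

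Pecam1 (chr11:106654217-106750628, minus strand) encodes the adhesion protein by which the cells were sorted, and neither list held a peak within 1 kb of its 5′ end at base 106750628. That end is only 1 of 6 start sites of this gene. The other 5 lie inside the gene, all under the early start site peak. That peak was 4486 bp long with a pileup of 27.7 and lay from 34078 to 38563 bp. The late list had no start site peak there, but this depended on the 1 kb limit: a late peak with a pileup of 96.2 lay 1325 bp from an internal start. With 3 kb each list had 3 start site peaks at Pecam1, and with the 5′ end alone neither had any. Peaks covered 38.2% of the window early and 12.8% late, the scaled log2 ratio was 0.00 (-0.47 with the same number of strongest peaks from each list), and the early share was at or above that of only 22.1% of all genes. Most peaks were intronic, 20 of 33 early and 17 of 24 late. The late peak of highest pileup, 213 with a fold of 8.80 over local background, lay in an intron from 94618 to 95065 bp, near the 3′ end, and touched no early peak. A late peak upstream, from -6737 to -6452 bp, had a pileup of 172 and the gene's highest fold, 12.4, and also touched no early peak. The early peak of highest pileup, 43.5, was intronic from 68976 to 69855 bp. The peaks of highest pileup at this gene thus lay away from its 5′ end and from its internal starts in both lists. The only start of another protein-coding gene in the window was that of Milr1, where the early list had 2 peaks and the late list none.

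The central 300 bases of that intronic late peak are shown because it had the highest late pileup at Pecam1. Capitals at positions 194 to 200 mark a match to TGANTCA, the word of AP-1 factors. Of these 300 bases, 37.7% are marked as repeats in the reference. TGANTCA was present in 7.81% of all promoters, and its share among peaks was not computed.
Pecam1 late intron peak, chr11:106655637-106655936, plus strand: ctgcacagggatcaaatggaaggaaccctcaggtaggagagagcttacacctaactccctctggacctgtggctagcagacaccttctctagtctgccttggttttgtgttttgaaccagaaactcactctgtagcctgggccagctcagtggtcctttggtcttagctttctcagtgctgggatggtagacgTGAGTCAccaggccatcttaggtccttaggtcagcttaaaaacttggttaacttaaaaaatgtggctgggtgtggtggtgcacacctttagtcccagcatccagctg

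Cdh5 (chr8:104101625-104144511, plus strand) encodes VE-cadherin and has 2 start sites. The early peak at its 5′ end was the gene's highest in that list, ran from -5825 to 396 bp over 6222 bp and had a pileup of 40.3, above or equal to 97.6% of all early peaks. In the late list a 491 bp peak from -1004 to -514 bp with a pileup of 33.7 was the only start site peak, and none lay over a start base. The internal start had an early peak from 7791 to 10414 bp with a pileup of 32.2. The first 1 kb on either side of the start sites was covered to 78.2% early and 12.2% late. The 5′ region of Cdh5 was thus covered by 1 broad early peak and by a short late one that stopped before the start. The highest late peak, at a pileup of 119, followed in the first part of the gene from 1199 to 2894 bp. Upstream, from 1 to 20 kb, late peaks covered 40.2%, against a median of 13.7% over all genes, with 5 peaks of pileups from 24.2 to 49.7. The scaled log2 ratio of the whole window was 0.33, and -0.39 with the same number of strongest peaks from each list.

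Esam (chr9:37528078-37538319, plus strand), a junctional adhesion protein of the immunoglobulin type, had the highest late share of the 10 genes, 24.2% of its window, at or above that of 94.0% of all genes. Its early share was 40.7%, and its scaled log2 ratio of 0.78 was the largest of the 10. Both lists held a peak over the 5′ end, from -1100 to 683 bp with a pileup of 34.5 early and from -2420 to 246 bp with a pileup of 42.1 late. Of its 4 start sites the 2 farthest inside, at bases 37530250 and 37530924, had no peak within 1 kb in either list. The 3 highest late peaks were a pair of intronic ones, at pileups of 144 and 149, and one downstream from 12459 to 13101 bp at 174. That downstream peak lay within 1 kb of a start of the neighbouring gene Vsig2, so it cannot be assigned to Esam. Vsig2 had 2 late start site peaks in all, and Nrgn and Siae, whose starts also lay in the window, had 1 each. All of these count in the late share of the Esam window. When only the better-scoring 50% of each list was kept, the scaled log2 ratio of Esam was -0.21. With the same number of strongest peaks from each list it was -0.52, with flanks of 50 kb 0.20 and in the gene body alone 0.45.

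Icam2 (chr11:106377656-106388075, minus strand) encodes a ligand of leukocyte integrins. It had 3 early start site peaks with pileups of 34.4, 39.6 and 34.9, of which the one at the 5′ end ran from -253 to 1474 bp. The only late start site peak, from 5635 to 7201 bp, lay at internal starts and had a pileup of 27.1. The late list thus had a peak at the internal starts but none within 1 kb of the 5′ end. Its highest late peak was upstream, from -4563 to -4128 bp, with a pileup of 99.2. The window was covered to 52.6% early and 18.8% late, with a scaled log2 ratio of 0.07, or 0.71 in the gene body alone. With the better-scoring 50% of each list that ratio was -2.60, and with lists cut to the same number of strongest peaks -3.14. A start of Prr29 lay in this window, with 2 early peaks and 1 late peak beside it.

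Robo4 (chr9:37401897-37415115, plus strand), a receptor of the Roundabout family found mainly on endothelium, had peaks over all 4 of its start sites in both lists. The early peak ran from -218 to 1391 bp with a pileup of 42.5, the highest of the 16 early start site peaks. The late peak ran from -1526 to 1126 bp with a pileup of 52.3 and a fold of 4.23. The start site bases were covered to 63.6% early and 98.9% late, so that Robo4 was the gene with the most complete late cover at its start sites. The promoter printed above lay wholly within both peaks. All 8 late peaks of this window touched an early peak, and the highest late pileup was 95.3, downstream from 15295 to 17147 bp. The scaled log2 ratio was 0.29, but 0.98 in the gene body alone and -0.05 in the parts of the window farther than 1 kb from any start site. A start of Robo3, a family member known for its role in axon guidance, lay in the window with 2 early and 2 late peaks.

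Clec14a (chr12:58264720-58269290, minus strand), a C-type lectin receptor with a single start site, also had a peak over the start in both lists. The early peak ran from -36 to 2388 bp, into the gene, with a pileup of 32.8. The late peak ran from -1836 to 83 bp, away from the gene, with a pileup of 27.8, and so took in the whole printed promoter where the early peak took in 39.3% of it. These start site peaks overlapped at the start and otherwise lay on opposite sides of it, but each list also had a peak on the other side. A late peak from 1030 to 1281 bp, with a pileup of 26.75, lay inside the early start site peak. An early peak from -4508 to -1187 bp, with a pileup of 23.8, overlapped the late one. The cover of the start window was alike, 51.8% early and 54.2% late. Across the window the shares were 35.0% and 14.5%, and the median late pileup was 38.5. The scaled log2 ratio of 0.29 rested on the flanks: it was 1.06 with flanks of 10 kb, -0.35 with flanks of 50 kb and -1.12 in the gene body alone.

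Mmrn2 (chr14:34375465-34404287, plus strand), whose product is a matrix ligand of CLEC14A, was the only one of the 10 genes with no early peak within 1 kb of a start. Its late start site peak ran from 1017 to 2348 bp with a pileup of 66.2 and a fold of 4.25, and covered 10.6% of the start site bases. An early peak from 1562 to 4140 bp overlapped that late peak but began beyond the 1 kb limit. The late-only start site peak of Mmrn2 is therefore a matter of the 1 kb limit: with 500 bp neither list had one, and with 3 kb the early list had 2. The highest early pileup, 51.6, was in the last exon from 26701 to 28470 bp, above or equal to 99.7% of all early peaks, where no late peak lay. The highest late pileup, 155, was intronic from 8333 to 9737 bp, over an early peak. Shares of the window were 41.3% and 17.5%, and the scaled log2 ratio was 0.32, but -0.35 with flanks of 50 kb and 1.81 with the better-scoring 50% of each list. The start of Sncg, a gene of neurons, had 1 early peak and no late peak.

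Cd34 (chr1:194938819-194961279, plus strand), which encodes a sialomucin of endothelial and blood stem cells, had its start site bases covered to 100% in the early list by 1 peak from -2393 to 1518 bp with a pileup of 31.4. The late list held a narrower peak inside it, from 78 to 862 bp, with a pileup of 122 and a fold of 10.9. That late peak began 22 bp from a start and shortly after the printed promoter, which no late peak touched. The contrast between the lists at this promoter thus depends on where that peak begins. A second late peak lay upstream from -1943 to -1300 bp at a pileup of 62.3. The median late pileup of the window, 79.6, was the highest of the 10 genes. The number of late peaks, 11, was the median of the 10 genes, so the late peaks of Cd34 were high rather than many. The highest of all 142 late peaks of the 10 genes, at a pileup of 240.1 and a fold of 12.1, lay downstream from 26655 to 26979 bp, at or above 97.4% of the late list. No early peak touched it, although an early peak from 27300 to 28208 bp, the highest early one of the gene at 41.5, began shortly after it. The window was covered to 48.5% early and 20.4% late, and the scaled log2 ratio was 0.30, or 1.46 in the gene body alone and -0.43 with the same number of strongest peaks from each list.

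The central 300 bases of that downstream peak are shown because no other late peak of the 10 genes was as high. The GC content of these bases was 38.3%, and 36.3% of them are marked as repeats in the reference. In capitals are matches on the minus strand to AGATAA, the GATA word (TTATCT as printed), at positions 124 to 129 and 172 to 177, and to ACAAAG, the SOX word (CTTTGT), at 213 to 218. AGATAA was present in 11.2% and ACAAAG in 18.7% of all promoters, and their shares among peaks were not computed.
Cd34 late downstream peak, chr1:194965487-194965786, plus strand: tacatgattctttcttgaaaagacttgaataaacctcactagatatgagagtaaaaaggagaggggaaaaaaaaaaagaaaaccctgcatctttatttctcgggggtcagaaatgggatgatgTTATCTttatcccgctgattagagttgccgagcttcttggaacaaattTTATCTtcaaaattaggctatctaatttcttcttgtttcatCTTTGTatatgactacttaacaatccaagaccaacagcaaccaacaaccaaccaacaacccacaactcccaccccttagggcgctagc

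Egfl7 (chr2:26580014-26593120, plus strand), which encodes a secreted protein of endothelial cells, has 12 start sites spread over its length and was the gene with the most start site peaks, 4 early and 3 late. The early ones ran from -5219 to 436, from 2723 to 5735, from 6677 to 6920 and from 10271 to 13581 bp, with pileups of 39.6, 33.7, 27.8 and 41.1. The late ones ran from 1168 to 1430, from 5654 to 7259 and from 8217 to 9179 bp, with pileups of 59.2, 132 and 35.0. The late peak from 5654 bp contained the short early peak and overlapped the end of the early peak before it, and the other early and late start site peaks did not overlap. Of the start bases themselves, none lay under a peak in both lists. The late peak at 132 was the highest of the 12 late start site peaks and covered the CpG-rich promoter 3, which no early peak touched. The short early peak, however, began 6 bp after the end of that promoter and 2 bp from a start, so the contrast between the lists at promoter 3 rests on those few bases. Promoter 2, with its ETS word, lay under an early peak and no late one. The window as a whole had the highest early share of the 10 genes, 57.0%, with 19.3% late and a scaled log2 ratio of -0.00. With lists cut to the same number of strongest peaks that ratio was -1.32. The neighbour Agpat2 had 1 start site peak in each list.

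Egfl7 is also the host gene of microRNA 126, a microRNA abundant in endothelium, whose hairpin (chr2:26591357-26591429) lies in an intron. The early peak from 10271 to 13581 bp covered 100% of the hairpin and the late list covered 0% of it. Its mature sequence, from RefSeq, is shown because the lists differ at this hairpin, with the seed, bases 2 to 8, in capitals.
mmu-miR-126a-3p: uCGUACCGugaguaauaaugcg

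Vwf (chr6:125546774-125686679, plus strand), the gene of the secreted clotting protein von Willebrand factor, had a weak early peak at its 5′ end and the strongest early peak of all 10 genes inside an intron. At the 5′ end the early peak ran from -360 to 679 bp with a pileup of 21.2, at or above only 6.21% of the early list. The late peak inside it ran from 277 to 577 bp with a pileup of 38.9, at or above 40.6% of the late list. A second pair of start site peaks, around internal starts farther on, had pileups of 22.5 early and 59.3 late. The early intronic peak, from 71250 to 72500 bp, had a pileup of 68.9, at or above 99.9% of the early list, and touched no late peak. The highest late peak, also intronic, lay from 111170 to 112479 bp at a pileup of 237, at or above 97.3% of the late list, and touched no early peak. The highest peaks of the lists thus lay far apart in the gene. Of the 54 early peaks 39 were intronic, and of the 34 late peaks 24. The window was covered to 42.8% early and 17.2% late, and the scaled log2 ratio was 0.24, or 0.76 with the better-scoring 50% of each list and 0.04 with flanks of 50 kb. A start of Ano2 had 1 peak in each list.

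The central 300 bases of the early intronic peak are shown because no other early peak of the 10 genes was as high. These 300 bases held no repeat bases and had a GC content of 57.3%, while the whole peak of 1251 bp had 19.2% repeat bases and a GC content of 49.0%. Capitals mark ACAAAG at positions 52 to 57 and, on the minus strand, 214 to 219, and GGGCGG at 199 to 204. The shares of these words among peaks were not computed.
Vwf early intron peak, chr6:125618500-125618799, plus strand: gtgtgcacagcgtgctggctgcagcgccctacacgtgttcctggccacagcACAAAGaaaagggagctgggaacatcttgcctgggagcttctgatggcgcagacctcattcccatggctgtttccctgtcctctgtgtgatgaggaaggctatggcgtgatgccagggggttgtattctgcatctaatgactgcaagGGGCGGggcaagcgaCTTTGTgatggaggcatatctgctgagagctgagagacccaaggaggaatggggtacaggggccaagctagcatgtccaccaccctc

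Early peaks at start sites were often among the higher ones of their list, and late peaks at start sites were not. Start site peaks of all genes differed in the same direction. The 16 early start site peaks had a median pileup of 34.0, and 7 of them (43.8%) were in the upper 10% of the early list, as were 19.2% of the start site peaks of all genes. Peaks of the same gene are not separate cases: those of Egfl7 at 39.6 and 41.1 and of Icam2 at 34.9 and 39.6 are among the 7. The 12 late start site peaks had a median pileup of 47.2, and none was in the upper 10% of the late list, where 7.21% of all late start site peaks were. With only 12 peaks, none differs little from that share. In the late list the median over the 60 intronic peaks was 64.0, and 4 of them were in the upper 10%. These intronic peaks were unevenly spread, with 24 in Vwf, 17 in Pecam1 and none in Egfl7, Icam2 and Clec14a, and the late median over all places ran from 28.8 in Icam2 to 79.6 in Cd34, so the places also differ in the genes they hold. Downstream peaks had a median of 55.6 and upstream peaks of 41.6. In the early list the medians by place lay closer together, from 25.0 in exons to 34.0 at start sites. Of all 201 early peaks 17.4% were in the upper 10%, and of all 142 late peaks 6.34%.

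**Figure D3:**
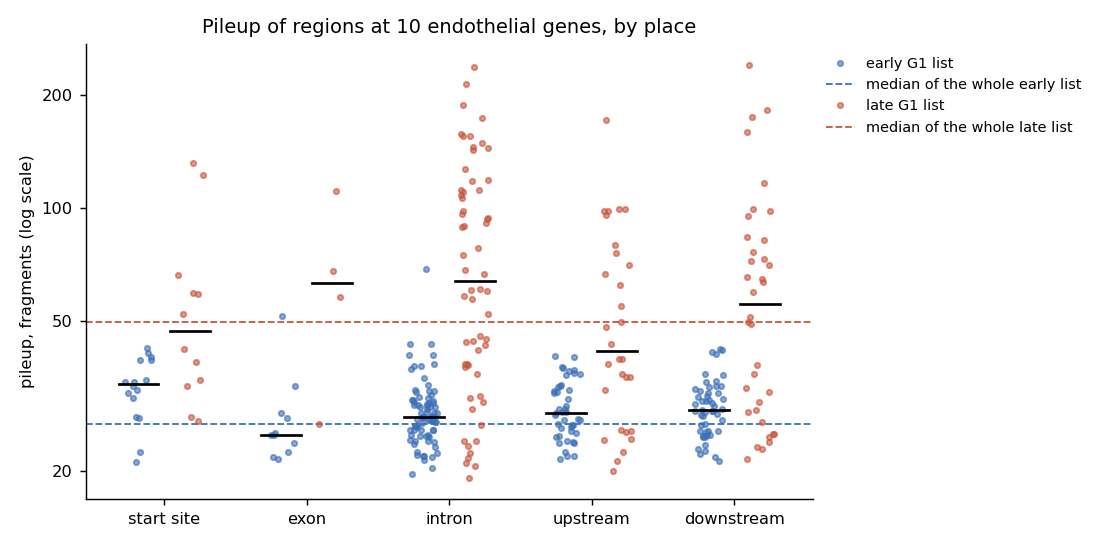
Pileup in fragments, on a log scale, of every peak in the windows of the 10 genes by place, early G1 in blue and late G1 in red; black bars are medians and dashed lines the medians of the whole lists (26.7 early, 49.8 late). Early start site peaks (median 34.0) sit mostly above the early line, and the highest late peaks, up to 240.1, are in introns and downstream.

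Peaks of the 10 genes touched a peak of the other list more often than peaks did over the whole lists. In the early list 101 of 201 did (50.2%, against 39.4% of all early peaks), and in the late list 108 of 142 (76.1%, against 66.4%). The whole lists also hold peaks outside gene windows, so these are unlike sets. Among gene windows, the median part of the bases in common was 21.4% early and 51.6% late, beside 16.5% and 50.2% over all genes. The shares of peaks that touched the other list were highest at early start site peaks, with 12 of 16, and at late exon and upstream peaks, with 4 of 4 and 27 of 30. The peaks were also richer in G and C, with median GC contents of 48.0% early and 48.2% late beside 42.8% and 43.5% in the whole lists. Their repeat shares were lower, 19.2% and 17.5% beside 25.0% and 23.9%. The windows themselves had a median GC content of 47.0%, against 44.4% over all genes, from 37.4% at Clec14a to 52.7% at Egfl7. Gene by gene, GC content and the part in common did not always go together. Egfl7, with the highest GC content, had 64.1% of its late bases in common, and Clec14a, with the lowest, had 53.2%. The part of GC content in these values was not tested.

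Around the 5′ ends, the average over the 10 genes was uneven and the average over all genes had a single maximum. In the early list the 1 kb bins from -11000 to -10000 bp and from -4000 to -3000 bp were covered to 83.5% and 79.4%. All genes averaged 43.5% and 41.6% there. These bins were named because they were the highest. The lowest early bin, from 7000 to 8000 bp, was covered to 21.15%, where all genes averaged 43.8%. In the first 1 kb of the genes the early cover was 62.0%, and all genes averaged 58.0%. In the late list the highest bin was the last 1 kb before the 5′ end, at 34.9% from 4 genes, where all genes averaged 22.4%. In the first 1 kb after it the late cover was 24.2%, beside 25.8% for all genes. With 10 genes, 1 broad peak can move a bin by up to 10 percentage points, and an average of 10 genes varies more than one of all genes.

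**Figure D4:**
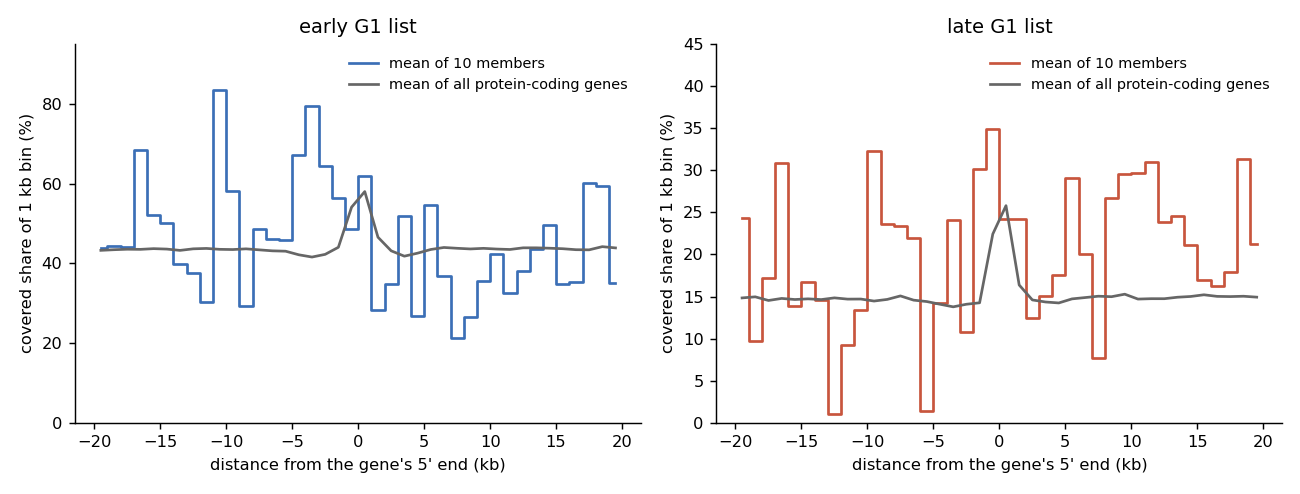
Mean covered share of 1 kb bins, in percent, by distance from the 5′ end in kb, for the 10 genes (coloured steps) and all protein-coding genes (grey), early G1 left and late G1 right with different vertical scales. All genes show 1 maximum at the 5′ end in both lists. The 10 genes are uneven, early from 21.15% (7000 to 8000 bp) to 83.5% (-11000 to -10000 bp), with 34.9% late just before the 5′ end.

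Of a list of 30 other endothelial adhesion and surface genes, 26 had an early and 16 a late start site peak, and 13 had both. Over all genes the early share was 92.6% and the share with both 64.3%. The late share, 53.3%, was below the 67.3% of all genes. Sele, Tie1 and Plvap, which encode E-selectin, a receptor of the angiopoietin pathway and a protein of endothelial diaphragms, had one in the late list only. So did 3.07% of all genes, and whether these late-only peaks depend on the 1 kb limit was not tested. The median covered shares of the 30 windows were 45.6% early and 14.1% late, and the median scaled log2 ratio was -0.09, with 11 of 30 above 0. The 10 genes and this longer list thus lay on opposite sides of the all-gene medians in the late list, a difference that was not tested. The median number of start sites was 2 in the longer list. The largest ratios were those of Cldn5 (1.31), the tight junction protein claudin-5, Cd93 (0.65) and Procr (0.52). The lowest were those of Tmem204 (-1.18), Kdr (-0.98), a receptor of vascular endothelial growth factor, and F11r (-0.87).

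In the early list, start site peaks were no rarer at markers of other cell types than at the 10 genes. Each of 5 lists of 8 markers (photoreceptors, retinal neurons, pericytes and smooth muscle, blood and microglia, astrocytes and Müller glia) had early start site peaks at 8 of 8 genes. In the late list it was 6 of 8 for photoreceptors and for neurons, 5 of 8 for astrocytes and Müller glia, 3 of 8 for pericytes and smooth muscle and 2 of 8 for blood and microglia, against 67.3% of all genes. The 10 genes had 9 of 10 and the 30 other endothelial genes 16 of 30 (53.3%). Covered shares of their windows had medians from 45.5% to 54.9% early and from 14.1% to 19.2% late. The medians of the photoreceptor markers were 54.9% early and 19.2% late, beside 45.6% and 19.1% for the 10 genes. The presence of such peaks does not tell which cells they came from, and the part of other cells in the values of the 10 genes was not tested.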

How the data were processed

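The data were 2 peak lists from ATAC-seq of sorted mouse retinal endothelial cells, 1 for early G1 (3 libraries) and 1 for late G1 (4 libraries), with groups taken from the sample titles. Trimmomatic, STAR, bedtools and MACS2 on mm10 are named in the submitters' processing notes. MACS2 2.2.7.1 was run in broad mode by the authors on the merged fragments of each group, per the file headers, with no control, all duplicates kept, a q-value cutoff of 0.05 for narrow and 0.1 for broad regions and background over 10000 bp. Kept duplicates can raise a pileup, and broad calls join neighbouring regions. The deposited pileup is a signal not scaled to depth, the deposited fold is the ratio of pileup to local background, and the deposited -log10 q-value served only as the score for ranking. The deposited length is in bp.

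Windows, start sites and places came from GENCODE M21, with an overlap of at least 1 bp. Peaks away from start sites were placed by their centre as exon, intron, upstream or downstream. A single list per group allows no test. The 10 genes and the marker lists were chosen with earlier results of these data known. Named peaks are the start site peaks and, for most genes and lists, the highest peak, with a few others chosen after their values were seen. The highest early peaks of Egfl7 (42.0, downstream), Icam2 (42.2, downstream) and Esam (37.8, upstream) were not described above. Nor was the highest late peak of Clec14a (82.0, downstream). Of the 30 other endothelial genes, up to 3 in each direction and those with a late-only start site peak are named. The interval code was tested on simulated data with known answers, with 0 wrong values. Python 3.11.15, NumPy 2.4.6, pandas 2.3.3, pysam 0.24.0 and matplotlib 3.10.9 were used.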

Additional observations from a re-analysis of the deposited data

How the results depend on the processing

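Neither list separates its libraries, so no library could be left out. No paired analysis was possible because each group is 1 pooled list that carries no replicate numbers. Start site peaks depended on the definition: with the 5′ end of the gene alone, or with 500 bp in place of 1 kb, 2 genes had one in the early list only (34.8% and 33.7% of all genes) and 0 in the late list only (4.22% and 4.71%). With 3 kb both counts were 0, where all genes had 11.9% and 0.755%. With the better-scoring 50% of each list, and likewise with both lists cut to the same number of strongest peaks, 5 genes had a late start site peak, 3 an early and a late one, 5 only an early one and 2 only a late one. The shares of all genes were 31.8%, 22.9%, 43.6% and 8.91% with the better 50%, and 31.8%, 16.8%, 30.3% and 15% with equal numbers. Median covered shares were then 28.9% early and 8.71% late with the better 50%, beside 25.3% and 7.30% over all genes, and 20.8% and 8.71% with equal numbers, beside 14.5% and 7.30%. The median scaled log2 ratio was -0.45 with equal numbers, 0.46 with flanks of 10 kb, 0.39 in the gene bodies alone, 0.05 with flanks of 50 kb, 0.06 with the better 50% and 0.19 away from start sites, against 0.29. Genes above 1 numbered 1 with the better 50% (Mmrn2), with equal numbers (Mmrn2), with flanks of 10 kb (Clec14a) and in gene bodies (Cd34), and 1 (Esam) was above 0.58. Genes below -1 numbered 1 with the better 50% (Icam2), 2 with equal numbers (Icam2 and Egfl7) and 1 in gene bodies (Clec14a). The first pair of these settings keeps fewer peaks, and otherwise the cause was not tested. Apart from these, counts of genes with a start site peak stayed within 1.5 times, with late ones at 6 genes for the 5′ end alone and 7 for 500 bp. Medians of ratios of -0.45, 0.46 and 0.39 lay outside the 2nd to 9th of the 10 ordered gene values. So did the median shares with the better 50% and with equal numbers. The other medians of shares and ratios stayed within the 2nd to 9th, a wide range that also holds 0.05 and 0.06. The median numbers of peaks per gene, 14 early and 11 late, did not all stay within that range. They were 10 and 5.5 with the better 50%, and 7 and 5.5 with equal numbers. In gene bodies alone they were 5 and 4, and with flanks of 10 kb the early one was 9. Scaling by genes with 2 to 6 start sites, chosen after seeing the data, gave a median of 0.30.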
